A study of Homo sapiens with 8 samples.

Results

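YAP, TEAD and MRTF pathway mRNAs are described here in crosslinking data for LARP6, a La-related RNA-binding protein. The group is made of 10 genes: the coactivators YAP1 and WWTR1, the DNA-binding factor TEAD1, its cofactor VGLL3, the coactivators MRTFA and MRTFB with their DNA-binding partner SRF, and the target genes CCN1, CCN2 and AMOTL2. A region was counted for a gene when its midpoint lay within the GRCh38 bounds of the gene on the gene's strand, which gave 636 regions of 178461 in the 6 region lists of the study. Human hepatic stellate cells of wild-type genotype, the collagen-producing cells of the liver, were given TGFβ1, the main activating cytokine of these cells, at 5 ng/ml, or no TGFβ1 (control, labelled both untreated and DMSO). Cells of both conditions were crosslinked with ultraviolet light of 254 nm at 400 mJ/cm2. LARP6 was immunoprecipitated, and RNA was sequenced beside a size-matched input, an assay named eCLIP. Each condition had 2 immunoprecipitated libraries, each with its own list of tested clusters (short stretches where reads piled up), and 1 further list of peaks that the authors made from both libraries. The origin of the cells and whether the replicates came from separate cultures are not given in the labels. Where libraries are compared, p-values measure only a spread between libraries that may be technical. The p-values that the authors gave for each tested cluster belong to 1 library and measure no such spread.

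YAP1 and WWTR1 carry signals of cell tension and cell density. When the kinases of the Hippo cascade are inactive they enter the nucleus and bind TEAD factors, which switch on genes such as CCN1 and CCN2. MRTFA and MRTFB are held in the cytoplasm by monomeric actin and, once released, activate SRF. Both routes are known for their part in the activation of stellate cells and fibroblasts.

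VGLL3 was the only one of these mRNAs with an enriched LARP6 cluster in any library and the only one in a list from both replicates. It was in the TGFβ1 list, with 1 peak near its 5′ end, and no member was in the control list. A second place in VGLL3, far downstream, had the gene's highest fold in all 4 libraries but passed the p limit only in TGFβ1 replicate 2. CCN1 and CCN2 held tested clusters along short genes, with low folds over input. MRTFB, although a long gene, had no tested cluster in the data used here; whether LARP6 bound its RNA cannot be read from that, and MRTFB is not described further.

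The RefSeq start windows of GRCh38.p14 hold 50 transcribed bases after a start, and 8 of the 10 genes matched that table. In 3 of them, VGLL3, WWTR1 and CCN2, clusters of both TGFβ1 libraries reached these bases. Up to 30 of them are shown for each gene. VGLL3 is shown because its peak is the single reproducible site of the group, and WWTR1 and CCN2 because sequence was at hand. CCN1 and TEAD1 did not match the table, so clusters near their 5′ ends could not be shown. Each stretch shown runs 5′ to 3′ on the minus strand. Capitals mark the bases inside the reproducible peak in VGLL3, and in WWTR1 and CCN2 the bases covered by clusters of both TGFβ1 libraries.
VGLL3, chr3:86991100-86991129: gGCTCCCCACGGCTGCCCGACCCGGGCCTG
WWTR1, chr3:149657981-149658010: gcGGCCGCGCTGTCTGCTTCTCCTGCGCCT
CCN2, chr6:131951323-131951352: tgagaggagacagCCAGTGCGACTCCACCC
The VGLL3 stretch covers transcript bases 21 to 50 and has 83.3% G and C. At the same transcript bases the median over 22199 RefSeq windows was 63.3%, and 90.8% of the windows had a lower value. The WWTR1 stretch covers transcript bases 16 to 45 and has 73.3% G and C. At those bases the window median was 66.7%, and 68.8% of the windows had a lower value. The CCN2 stretch, bases 21 to 50, has 63.3%, and 40.9% of the windows had a lower value. The VGLL3 peak continues downstream of the shown bases, where no sequence was at hand. The WWTR1 stretch lies at an internal annotated start, since the annotated gene begins further upstream.

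The 4 libraries differed in size and in the shape of their values. TGFβ1 replicates 1 and 2 held 31137 and 54536 tested clusters, and control replicates 1 and 2 held 51273 and 39880. The files give no read counts, so depth is unknown. A cluster was called enriched when its log2 fold over input and its −log10 p both reached 3; both are the authors' deposited values. By this rule 2.69% and 3.64% of all tested clusters were enriched in TGFβ1 replicates 1 and 2, and 1.21% and 2.09% in control replicates 1 and 2. The median log2 fold of all tested clusters was 0.94 and 0.82 in the TGFβ1 libraries and 0.38 and 0.85 in the control libraries. Many clusters shared 1 value: 19.6% and 15.4% of the clusters of the TGFβ1 libraries had a log2 fold of 1.20 and 1.31, and 28.8% and 25.1% of those of the control libraries had 0.38 and 0.85. Of 10 stellate cell and fibroblast markers, 7 held tested clusters in every library, while DES, RGS5 and LRAT held none. None of 6 hepatocyte and 4 endothelial markers held any, and of 4 macrophage markers CD68 alone did. Of 4 cholangiocyte markers, KRT7 and SOX9 held clusters, together 15 and 18 in the TGFβ1 libraries and 2 and 3 in the control libraries; the part of such cells in the results below was not tested.

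The members held 126 and 195 tested clusters in TGFβ1 replicates 1 and 2, and 173 and 141 in control replicates 1 and 2. All 9 genes with a cluster had at least 1 in every library, and no cluster lay on the opposite strand of a member. In TGFβ1 replicate 1, 1 of 126 clusters was enriched (0.794%, 95% Wilson interval 0.140 to 4.36), against the 2.69% of all clusters of that library. In TGFβ1 replicate 2, 3 of 195 were enriched (1.54%, interval 0.525 to 4.42), against 3.64%. In control replicates 1 and 2, 0 of 173 and 0 of 141 were enriched, which allows shares of up to 1.73% and 2.13%, against 1.21% and 2.09%. These intervals and limits cover counting error only, and each of them includes the share of all clusters. All 4 enriched clusters lay in VGLL3, and 3 of them came from TGFβ1 replicate 2. Without that library 1 enriched cluster remained. The median log2 fold of the members' clusters was 0.39 and 0.50 in the TGFβ1 libraries and 0.38 and 0.52 in the control libraries. By gene, 1 of 9 members had a peak in the TGFβ1 list, where 7.04% of the 5372 protein-coding genes tested in both TGFβ1 libraries had one. For the control list these were 0 of 9 members and 3.88% of 5489 genes. Within single libraries, 1 of 9 members had an enriched cluster in each TGFβ1 library, against 6.55% and 11.5% of the protein-coding genes tested in replicates 1 and 2. In the control libraries 0 of 9 had one, against 2.96% and 5.11%.

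**Figure D1:**
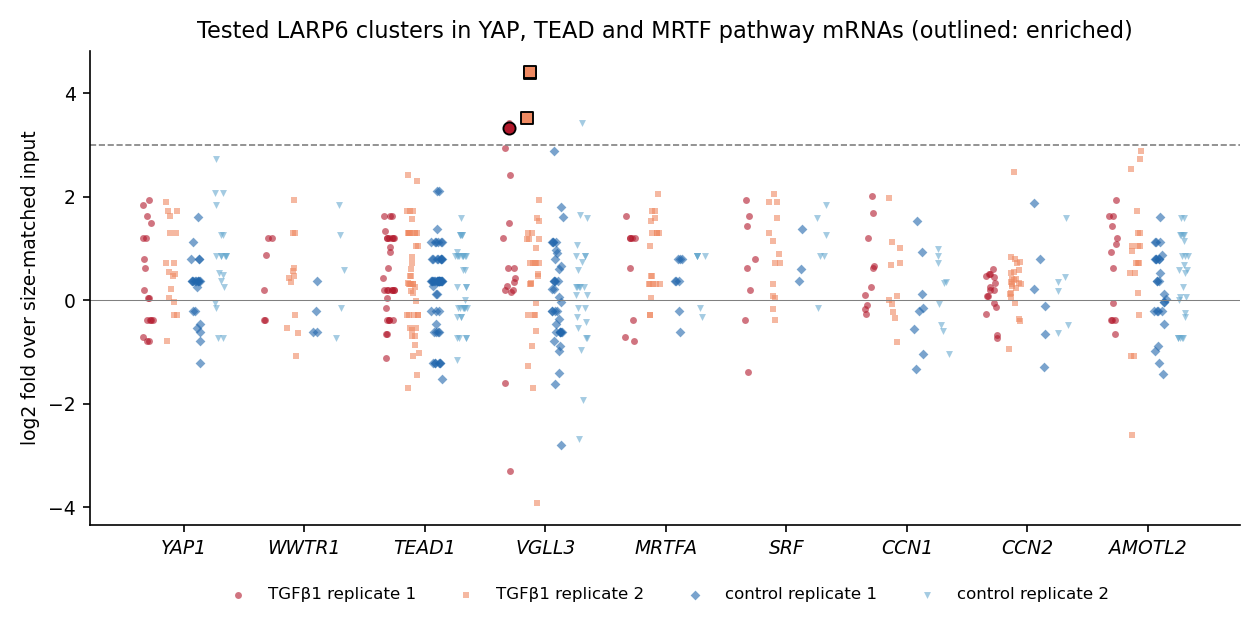
Log2 fold over size-matched input (y axis) of every tested cluster of the 9 members with clusters (x axis), 1 point per cluster, coloured by library; outlined points are enriched and the dashed line marks a log2 fold of 3. Apart from VGLL3, no gene has a point above the line, and the highest VGLL3 points lie at 4.41 in TGFβ1 replicate 2.

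VGLL3 encodes a vestigial-like protein that binds TEAD factors through the surface that YAP also uses. The gene spans chromosome 3, 86937973 to 86991149, on the minus strand. Its reproducible peak covered 86991007 to 86991128, a stretch of 122 nt that begins 21 nt inside the annotated 5′ end and holds the capitals of the VGLL3 sequence shown above. In the TGFβ1 list it had a log2 fold of 3.40 and a −log10 p of 4.24, near both limits. At this place the log2 fold was 3.32 and 3.53 in TGFβ1 replicates 1 and 2, against 0.67 and 1.65 in control replicates 1 and 2. The −log10 p of these clusters was 4.47 and 7.62 in the TGFβ1 libraries, against 0.24 and 1.44 in the control libraries. Both TGFβ1 libraries were above both control libraries and past both limits, and each control library had a tested cluster there, so the place was covered in all 4. The mean was 3.42 ± 0.15 in TGFβ1 and 1.16 ± 0.70 in control libraries (SD, n = 2), a difference of 2.26, and with 1 library left out it was between 1.77 and 2.76. The place was taken from the TGFβ1 list, where every peak has a log2 fold of at least 3 from both replicates together. That favours such a difference, so these values are a description and no test is given.

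The downstream place in VGLL3 covered 86946292 to 86946342 in the 4 libraries together, 44807 nt from the 5′ end of the gene and 8319 nt from its 3′ end. It was singled out after its values were seen. Its highest cluster had a log2 fold of 3.43 and 4.41 in TGFβ1 replicates 1 and 2, and of 2.88 and 3.43 in control replicates 1 and 2. The −log10 p was 2.50 and 16.0 in the TGFβ1 libraries, and 1.70 and 2.50 in the control libraries. The highest VGLL3 cluster of each library was thus at the same 51 nt, and TGFβ1 replicate 1 and control replicate 2 were alike in both values, which passed the limit for the fold but not the limit for p. The mean was 3.92 ± 0.69 in TGFβ1 and 3.16 ± 0.39 in control libraries (SD, n = 2), a difference of 0.76, and the groups overlapped. TGFβ1 replicate 2 had 2 abutting enriched clusters here, so its 3 enriched VGLL3 clusters make 2 places.

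Other places of VGLL3 spread widely. In all, 57 places were covered in at least 1 library and 7 in all 4. A place at 86942967 to 86943060 was below input in every library, at −3.31 and −3.92 in the TGFβ1 libraries and −2.79 and −2.68 in the control libraries. No other place covered in all 4 libraries was below input in each of them. A place from 86978607 to 86978809 reached 2.94 and 1.53 in the TGFβ1 libraries and 1.60 and 1.07 in the control libraries on the log2 scale, none past a limit. The median over all clusters of the gene was 0.52 and 0.72 in the TGFβ1 libraries and 0.01 and 0.26 in the control libraries. Each was below the median of all tested clusters of its library, which was 0.94 and 0.82 for TGFβ1 and 0.38 and 0.85 for control.

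**Figure D2:**
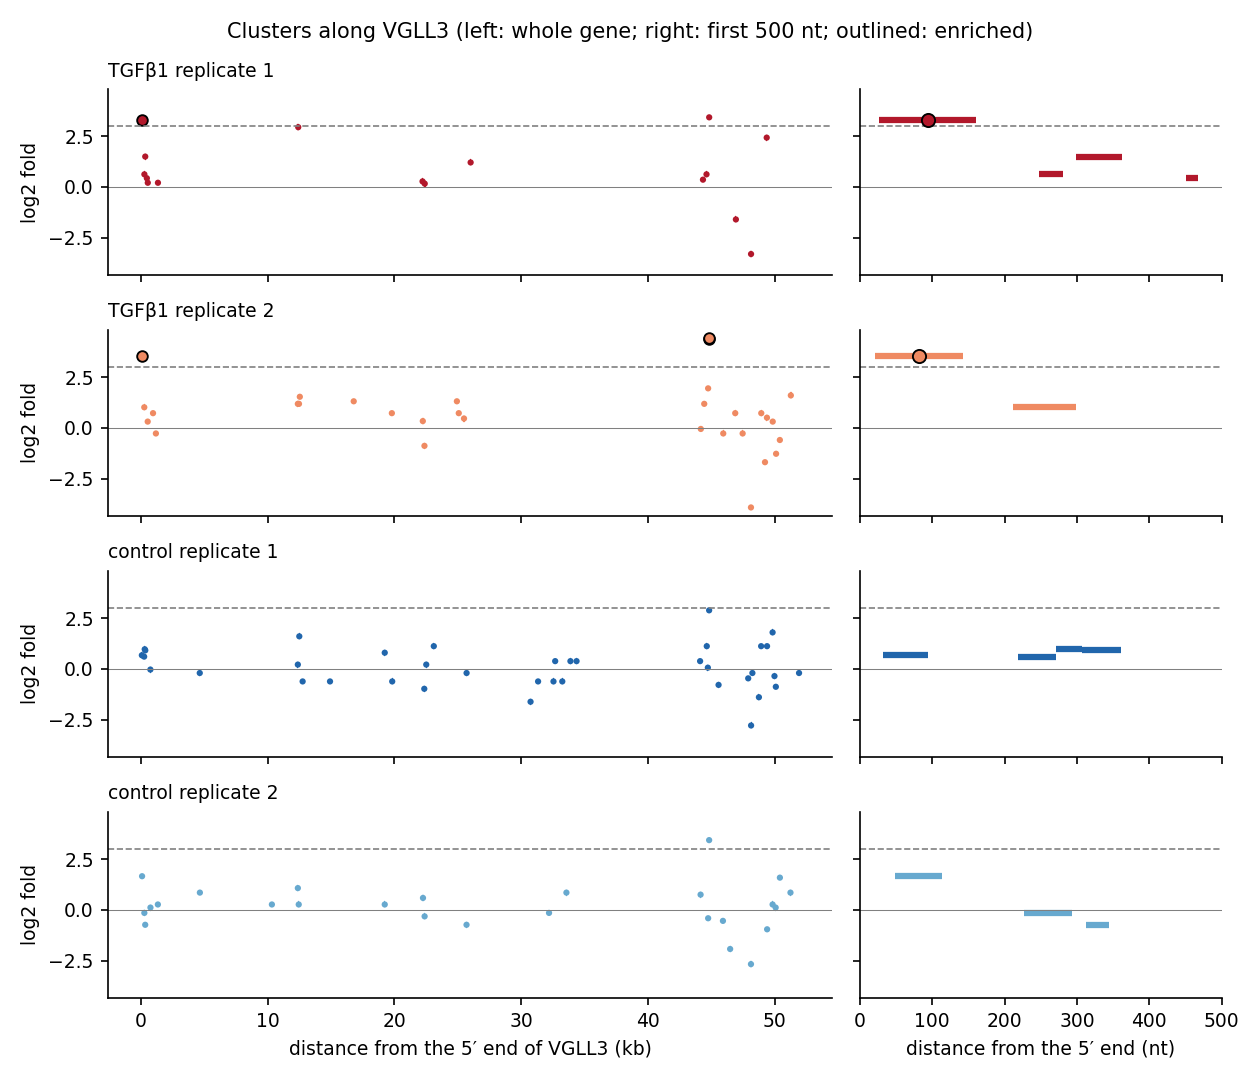
Clusters of VGLL3 in each library, TGFβ1 above control, by distance from the annotated 5′ end (x axis, kb for the whole gene at left, nt for the first 500 nt at right) and log2 fold over input (y axis); bars span a cluster, outlined points are enriched, and the dashed line marks 3. The cluster that starts near the 5′ end lies at 3.32 and 3.53 in the TGFβ1 libraries and at 0.67 and 1.65 in the control libraries, and the downstream place is the highest point of each library.

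By the highest log2 fold in each library, the 3 protein-coding genes closest to VGLL3 among 4320 with clusters in all 4 libraries were NHSL2, SYT11 and MEF2D. NHSL2 had 3.32 and 4.48 in the TGFβ1 libraries and 2.70 and 3.43 in the control libraries, a mean absolute distance of 0.09. The distance was 0.11 for SYT11, a synaptotagmin gene, and 0.12 for MEF2D, a transcription factor gene. This likeness rests on 4 values per gene.

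YAP1, WWTR1 and TEAD1, the core of the YAP and TEAD route, had no cluster past the fold limit. YAP1 (chromosome 11, 102110447 to 102233424, plus strand) reached a log2 fold of 1.94 and 1.89 in the TGFβ1 libraries, and of 1.60 and 2.72 in the control libraries. The control value of 2.72 came from a cluster at 102110755 to 102110873, which begins 308 nt from the 5′ end and had a −log10 p of 2.62. At that place the TGFβ1 libraries had 1.49 and 0.54 and control replicate 1 had −0.21, so control replicate 2 stood alone. WWTR1 (chromosome 3, 149517235 to 149724788, minus strand), which encodes the YAP paralogue TAZ, had 1.20 and 1.95 in the TGFβ1 libraries and 0.38 and 1.85 in the control libraries. The clusters over the WWTR1 bases shown above were the highest of the gene in TGFβ1 replicate 2 and were not enriched, with a −log10 p of 0.20 and 1.57 in the TGFβ1 libraries. TEAD1 (chromosome 11, 12674421 to 12944737, plus strand) had 1.62 and 2.42 in the TGFβ1 libraries and 2.12 and 1.58 in the control libraries. In TEAD1 96 of 124 places were covered in a single library and 3 in all 4.

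MRTFA, SRF and AMOTL2 also had no enriched cluster. MRTFA (chromosome 22, 40410289 to 40636719, minus strand) reached a log2 fold of 1.62 and 2.05 in the TGFβ1 libraries, and of 0.79 and 0.85 in the control libraries. The −log10 p of these clusters was 0.40 and 0.64 in the TGFβ1 libraries and 0 in both control libraries. SRF (chromosome 6, 43171269 to 43181506, plus strand) binds the CArG box of actin and other muscle-type genes. It had 1.94 and 2.05 in the TGFβ1 libraries and 1.38 and 1.85 in the control libraries. The −log10 p of these SRF clusters was 0.61 and 1.11 in the TGFβ1 libraries and 0.17 and 0.57 in the control libraries. Of its 17 places 2 were covered in all 4 libraries. AMOTL2 (chromosome 3, 134355345 to 134375417, minus strand) encodes an angiomotin-like protein that binds YAP and is itself a YAP target. Its log2 fold reached 1.94 and 2.89 in the TGFβ1 libraries and 1.60 and 1.58 in the control libraries. The value of 2.89 in TGFβ1 replicate 2 had a −log10 p of 1.57, short of the limit. In TGFβ1 replicate 1 the same highest value, 1.94, was found in SRF, AMOTL2 and YAP1.

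CCN1 and CCN2 encode secreted matricellular proteins, and both are short genes. CCN1 spans chromosome 1, 85580761 to 85583950, plus strand, and CCN2 chromosome 6, 131948176 to 131951372, minus strand. Per kb of gene, CCN2 held 5.00 and 7.51 tested clusters in the TGFβ1 libraries and 1.88 in each control library, and CCN1 held 3.13 and 3.45 against 2.51 and 2.82. The other members with clusters held between 0.02 and 1.37 per kb, but most of those genes are far longer, and exons were not given in the annotation used here. Clusters of CCN1 lay at the same places in most libraries, with 5 of 7 places covered in all 4, and CCN2 had 4 of 10.

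CCN1 had a place with small p and modest fold, taken as its cluster of highest −log10 p over all libraries, which came from TGFβ1 replicate 2. That choice favours TGFβ1 over control, and no test is given. At 85581414 to 85581462, which begins 653 nt from the 5′ end, the log2 fold of the highest overlapping cluster was 2.01 and 1.98 in TGFβ1 replicates 1 and 2, against −0.15 and 0.99 in control replicates 1 and 2. Their −log10 p was 5.93 and 16.1 in the TGFβ1 libraries, against 0 and 1.41 in the control libraries. The TGFβ1 libraries were above the control libraries and past the p limit, and all 4 were short of the fold limit. The mean log2 fold was 1.99 ± 0.02 in TGFβ1 and 0.42 ± 0.80 in control libraries (SD, n = 2), a difference of 1.57. With the fold limit at 2, the CCN1 cluster of TGFβ1 replicate 1 would be called enriched. A second place, 85583246 to 85583335, had 1.20 and 1.13 in the TGFβ1 libraries and 1.53 and 0.33 in the control libraries, and these folds did not separate the groups. The −log10 p there was 2.62 and 4.15 in the TGFβ1 libraries and 0.96 and 0.17 in the control libraries, so TGFβ1 replicate 2 passed the p limit.

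CCN2, often named CTGF, had its highest cluster in TGFβ1 replicate 2, at 131948398 to 131948429, which ends 222 nt before the 3′ end of the gene. It had a log2 fold of 2.48 and a −log10 p of 13.6, and the other 3 libraries had no tested cluster there. It would be called enriched with the fold limit at 2. The highest log2 fold per library was 0.60 and 2.48 in the TGFβ1 libraries and 1.88 and 1.58 in the control libraries, with overlapping groups. In TGFβ1 replicate 2, 6 of the 24 CCN2 clusters passed the p limit and none passed the fold limit, and in the other libraries none passed either limit. The clusters over the CCN2 bases shown above lay below input.

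**Figure D3:**
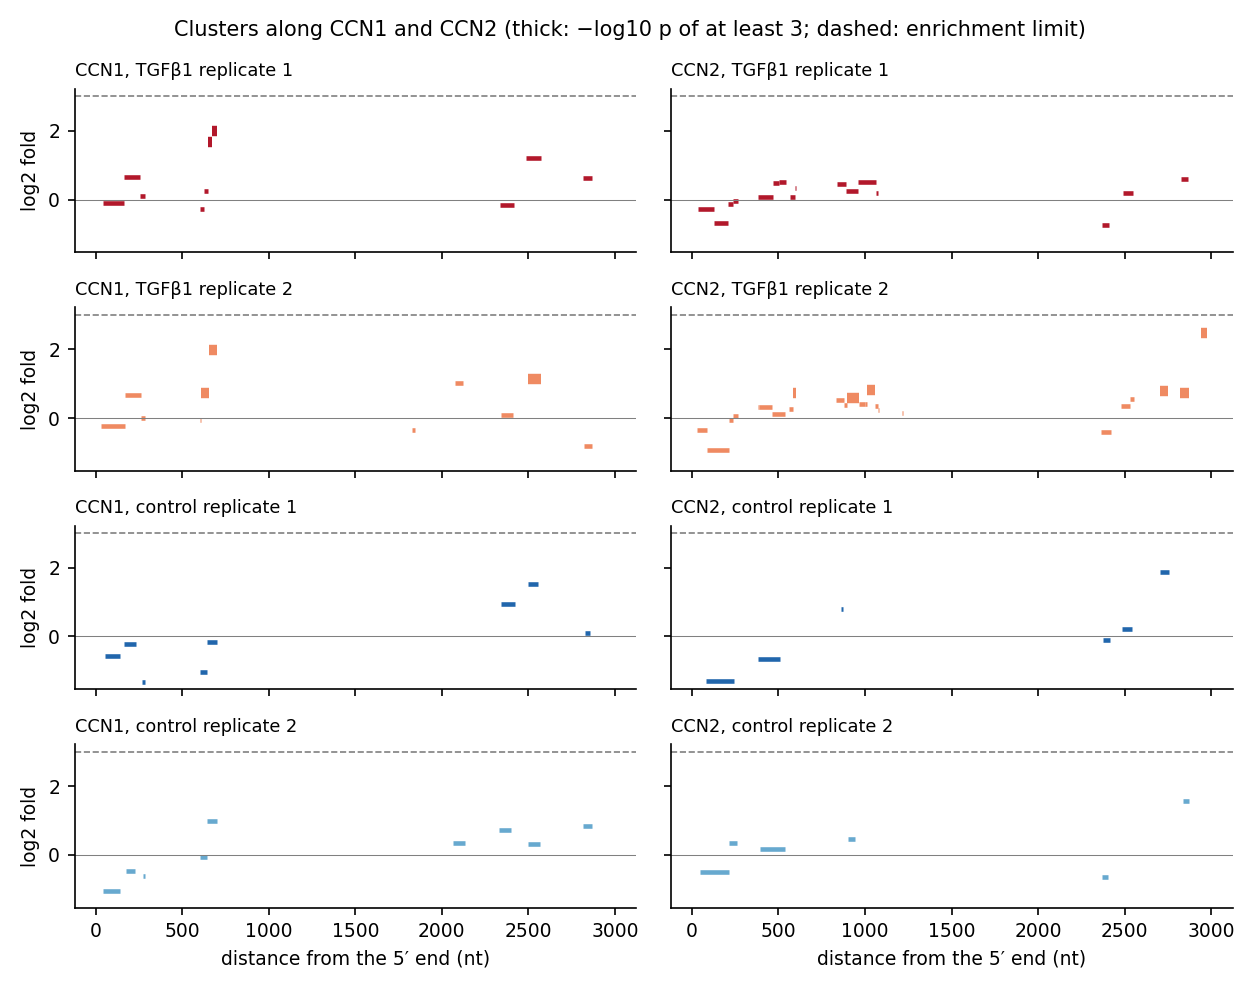
Clusters of CCN1 (left) and CCN2 (right) in each library, TGFβ1 above control, by distance from the annotated 5′ end (x axis, nt) and log2 fold over input (y axis); thick bars have a −log10 p of at least 3 and the dashed line marks the fold limit of 3. All bars lie under the limit, and the thick CCN1 bars near 653 nt are at 2.01 and 1.98 in the TGFβ1 libraries.

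The number of tested clusters, which was counted whatever their fold, differed between conditions in some members. CCN2 had 16 and 24 tested clusters in TGFβ1 replicates 1 and 2, against 6 in each control library. SRF had 8 and 14 against 3 and 6, MRTFA 9 and 20 against 8 and 7, and WWTR1 6 and 12 against 4 and 5. CCN1 had 10 and 11 in the TGFβ1 libraries, against 8 and 9 in the control libraries. In these 5 genes both TGFβ1 libraries held more clusters than either control library. AMOTL2 had 13 and 20 in the TGFβ1 libraries, against 27 and 25 in the control libraries, and YAP1 had 18 and 17 against 22 and 20. In these 2 genes both TGFβ1 libraries held fewer. VGLL3, with 16 and 31 against 38 and 26, and TEAD1, with 30 and 46 against 57 and 37, overlapped between the groups, and the TEAD1 difference of −9 was 1 without control replicate 1. The differences depended on single libraries in other members too. Without TGFβ1 replicate 2 they were 1.5 for MRTFA, 1.5 for WWTR1, 3.5 for SRF and −16 for VGLL3, in place of 7, 4.5, 6.5 and −8.5. Without TGFβ1 replicate 1 they were 12.5 for MRTFA, 7.5 for WWTR1, −1 for VGLL3 and −6 for AMOTL2, whose full difference was −9.5. The VGLL3 difference was −2.5 without control replicate 1 and −14.5 without control replicate 2. Of 9193 protein-coding genes with a cluster in any library, 14.2% had more in both TGFβ1 libraries and 13.2% had fewer. Among 2289 genes with a mean of at least 5 clusters over the 4 libraries, which all 9 members reach, these were 20.6% and 22.7%. No gene of the 9193 could pass the exact permutation test, whose smallest p is 0.333 (0 at an adjusted p and 0 at an unadjusted p under 0.05); it was 0.333 for the 7 members with groups apart and 0.667 for VGLL3 and TEAD1. The median difference of TGFβ1 minus control was 2 clusters over the 9 members and 0 over all 9193 genes. Most of the 9193 genes had a mean under 5 clusters, which leaves little room for a difference, so these medians are not like for like.

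As a share of all tested clusters of the library, groups stood apart in 4 members with higher TGFβ1 values, CCN2, SRF, MRTFA and WWTR1, and in 2 with lower values, AMOTL2 and VGLL3. On this scale 32.7% of the 2289 genes were higher and 26.3% lower in both TGFβ1 libraries. CCN1 and YAP1 then overlapped. Clusters can also be parts of 1 stretch. Merged where at most 20 nt apart, CCN2 had 7 and 10 in the TGFβ1 libraries and 6 and 5 in the control libraries, so its difference was 3 in place of 14. The merged number for CCN1 was 5 and 7 in the TGFβ1 libraries and 7 and 8 in the control libraries, which turned its difference of 2 into −1.5. Tested clusters depend on how much RNA of a gene was crosslinked and sequenced, and in these bulk libraries fewer cells that express a gene and less RNA per cell cannot be told apart.

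**Figure D4:**
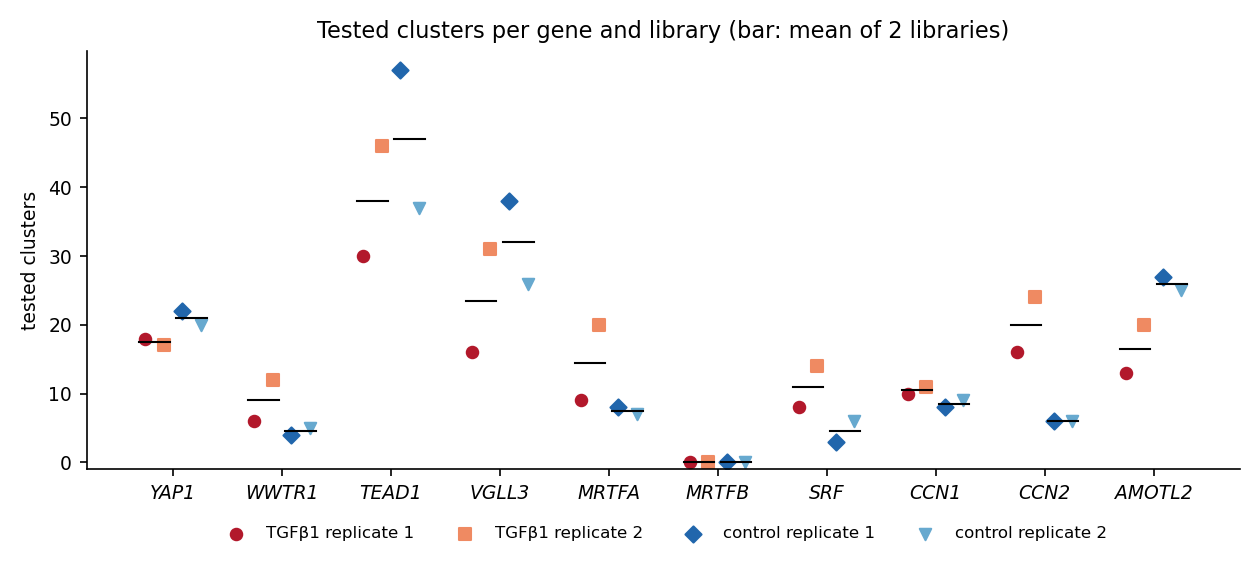
Number of tested clusters (y axis) of each member (x axis) in each library, TGFβ1 left of control, with a bar at the mean of the 2 libraries of a condition. CCN2 stands apart with 16 and 24 in the TGFβ1 libraries and 6 in each control library, and MRTFB has no tested cluster in the data used here.

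A further 81 genes of the pathway, in 4 lists, give the surroundings of the members. Of these, 72 held a tested cluster in at least 1 library. In the TGFβ1 list 5 of the 60 tested in both TGFβ1 libraries had a reproducible peak (8.33%, beside 7.04% of all protein-coding genes), and in the control list 2 of 53 (3.77%, beside 3.88%). Both shares are near the background. By list, the MRTF and SRF targets and cofactors had 3 of 24 in the TGFβ1 list and 1 of 21 in the control list. The Hippo kinases and their upstream regulators had 2 of 17 and 1 of 17. The YAP and TEAD targets had 0 of 17 and 0 of 13, and the other TEAD and VGLL genes had 0 of 2 in each list. TEAD3 and VGLL4, relatives of TEAD1 and VGLL3, reached at most a log2 fold of 1.72 in any library.

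TAGLN, the transgelin gene and a classic SRF target, had 3 TGFβ1 peaks and 1 control peak. Its log2 fold reached 5.49 and 6.67 in the TGFβ1 libraries, against 4.08 and 4.85 in the control libraries, all of them enriched. FLNA, an actin crosslinker, reached 4.24 and 7.25 in the TGFβ1 libraries, against 2.96 and 3.17 in the control libraries, over the whole gene. At the peak with these TGFβ1 values the control libraries had 1.20 and 2.21. FHL3, a LIM domain protein gene, had 4.57 and 6.13 in the TGFβ1 libraries, against 2.88 and 2.96 in the control libraries. FLNA and FHL3 are named through the TGFβ1 list alone, where every peak has a log2 fold of at least 3 from both replicates together. The order of their groups is therefore no finding. TAOK1, a kinase that acts upstream in the Hippo cascade, was enriched in all 4 libraries at 1 place (chromosome 17, 29390865 to 29390920, plus strand), with 3.90 and 3.50 in the TGFβ1 libraries and 3.003 and 3.58 in the control libraries. This place lay 502 nt from the annotated 5′ end, and the groups overlapped. MAP4K4, another kinase upstream of LATS, had a TGFβ1 peak 207 nt from its 5′ end on chromosome 2. At that place it had 4.43 and 2.16 in the TGFβ1 libraries, against 1.70 and 1.11 in the control libraries, so TGFβ1 replicate 2 was short of the fold limit. When enriched clusters of both replicates had to overlap by at least 1 nt, MAP4K4 was lost and 4 pathway genes remained for TGFβ1. MAP4K4, too, is named through the TGFβ1 list alone.

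**Figure D5:**
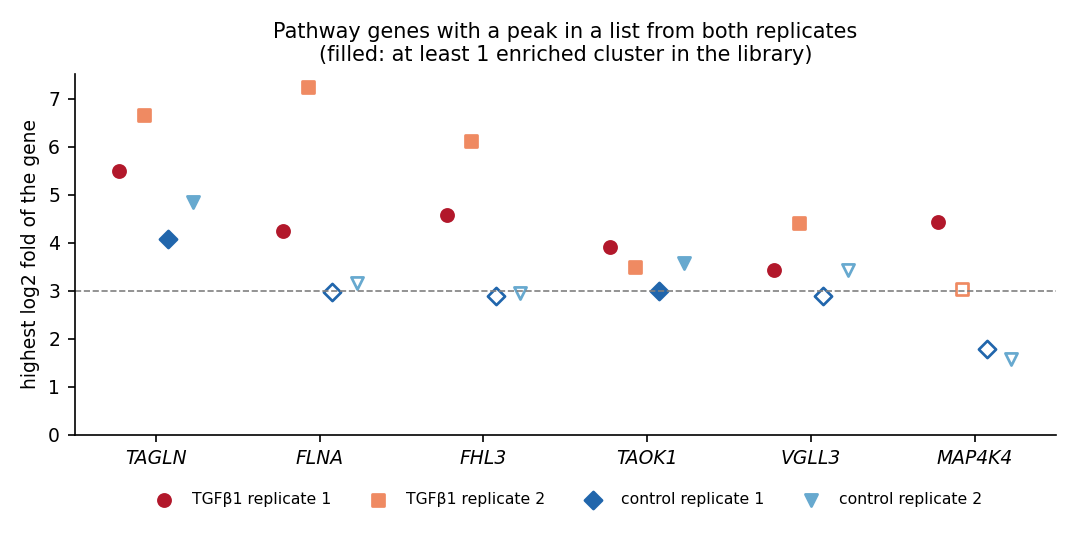
Highest log2 fold over input (y axis) in each library of the pathway genes with a peak in a list from both replicates (x axis), VGLL3 included; TGFβ1 libraries stand left of control libraries, filled symbols have at least 1 enriched cluster in that library, and the dashed line marks 3. TAOK1 and TAGLN are filled in all 4 libraries, and VGLL3 in the TGFβ1 libraries alone.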

How the data were processed

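The submitters' processing notes name cutadapt, STAR, UMI-tools and GRCh38, with no versions, roles or order. How clusters were called, set against input and joined across replicates is not given in the sources used here. Units were read from the values of the files, which have no header: 1 deposited column was taken as the log2 fold over size-matched input, and another, which is at most 400, as the −log10 p-value, both computed by the authors. Neither list from both replicates holds a value under 3 in these columns. Depth is unknown, since no counts are given, and the inputs were not analysed here on their own. Gene bounds came from RefSeq GRCh38.p14, and strands from its start windows or, for CCN1 and TEAD1, from the majority of clusters.

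Clusters are listed per library. Single values were compared by exact permutation, adjusted by Benjamini-Hochberg over all genes. Shares have Wilson intervals, except that the limit for a share of 0 is 3 divided by the number of clusters. The replicate number was tried as a block. Coordinates are 1-based. The members and gene lists were chosen with earlier results of these data known. All 10 members are named, with the pathway genes that had a reproducible peak (at most 6 per list) and the 3 genes closest to VGLL3. Comparing genes with at least 5 clusters, and by share of a library, was added after the data were seen. The code was tested on simulated clusters, and all 200 planted genes were recovered. The software was Python 3.11.15 with SciPy 1.17.1 and NumPy 2.4.6, pandas 2.3.3 for tables, and matplotlib 3.10.9.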

Additional observations from a re-analysis of the deposited data

How the results depend on the processing

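Under the alternatives tried 102 values kept their direction or, for counts of genes or clusters, stayed within 1.5 times, 7 moved and 2 reversed. Some of the 102 could not change. A block of paired libraries leaves a difference of means as it was, and a count of 0 stays 0 under stricter limits. Among the 102, pathway genes for TGFβ1 numbered 4 in place of 5 when enriched clusters of both replicates had to overlap, without MAP4K4. Tested clusters as a share of the library kept their directions, but the groups then overlapped for CCN1 and YAP1 and stood apart for VGLL3. The mean number of enriched member clusters, 2 higher in TGFβ1 than in control libraries, was 1 higher with the fold limit at 4, and between 1 and 3 with 1 library left out (1 without TGFβ1 replicate 2). The 1 member in the TGFβ1 list, VGLL3, was lost (0) with a log2 fold of at least 4 and with a −log10 p of at least 5. With a log2 fold of at least 4, pathway genes in the TGFβ1 list numbered 3 in place of 5, and in the control list 1 in place of 2. With the enriched clusters of 1 library in place of the list they numbered 6 to 8 for TGFβ1 and 2 to 3 for control. The difference in tested clusters turned to −1.5 for CCN1 with clusters merged at 20 nt, and ranged from −19 to 1 for TEAD1 with 1 library left out; the cause was not tested. Same-numbered libraries did not deviate together (r = −0.04 across 4321 genes, which are not independent). This single value cannot show whether they shared a culture or a day, and the labels give only the number. With the replicate number as a block the VGLL3 5′ difference was 2.26, which equals the unblocked value by arithmetic and so is no check. The VGLL3 place was taken from the TGFβ1 list, which favours such a difference, so no test of it is given. With 2 libraries per condition the exact tests used here cannot reach 0.05, and without read counts the depth behind a cluster is unknown.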

Other observations

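Several pathway genes outside the rule for named genes differed in the number of tested clusters, and they were picked after their values were seen. ANKRD1, a muscle ankyrin repeat protein gene and a common readout of YAP activity, had 8 and 7 tested clusters in the TGFβ1 libraries, against 0 in each control library. CNN1, which encodes the smooth muscle protein calponin 1, had 12 and 15 in the TGFβ1 libraries, against 0 and 1 in the control libraries. NT5E, a cell surface nucleotidase gene that is also a YAP target, had 0 and 1 in the TGFβ1 libraries, against 17 and 6 in the control libraries. None of ANKRD1, CNN1 and NT5E had an enriched cluster in any library. Of the 25 MRTF and SRF target genes and cofactors with a cluster, 14 had more clusters in both TGFβ1 libraries than in either control library and 1 had fewer. Of the 18 YAP and TEAD targets with a cluster these were 6 and 5. Over all 9193 protein-coding genes with a cluster 14.2% had more and 13.2% had fewer, and 20.6% and 22.7% of the 2289 genes with a mean of at least 5 clusters. As a share of the library's clusters, 13 of the MRTF and SRF genes were higher and 1 lower, and 6 of the YAP and TEAD targets were higher and 5 lower. On that scale 22.7% of the 9193 genes were higher and 17.8% lower, and 32.7% and 26.3% of the 2289. Both lists were chosen with earlier results of these data known, and neither was tested against other genes.

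FAT1, a giant protocadherin gene of the Hippo pathway, reached a log2 fold of 3.53 and 5.53 in the TGFβ1 libraries, against 2.70 and 2.17 in the control libraries. It was enriched in TGFβ1 replicate 2 alone, with a −log10 p of 13.1, and is in neither list from both replicates. CNN2, the calponin 2 gene, had 3.12 and 4.25 in the TGFβ1 libraries, against 3.44 and 3.07 in the control libraries. Both TGFβ1 libraries held 1 enriched CNN2 cluster and the control libraries held none, but CNN2 is not in the TGFβ1 list.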
